A study of Mus musculus with 24 samples.

Results

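The potassium channel genes were taken as all protein-coding genes of the count table whose symbol starts with Kcn. There were 94 of them among 24537 genes. They covered 17 alpha subunits of voltage-gated Kv1 to Kv4 channels, 10 silent Kv subunits, 5 KCNQ channels, 8 channels of the EAG, ERG and ELK group, 8 channels opened by calcium or sodium, 15 inward rectifiers, 14 two-pore-domain channels and 17 accessory subunits. Of the 94 genes, 62 had enough reads for a test, and 31 stayed below 10 counts in every library. Kcng4 was singled out because an earlier look at these data had shown it to fall in Cre+ EDL muscle, so its fall there is a description.

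The study induced the reprogramming factors Oct4, Sox2, Klf4 and c-Myc (OSKM) in the myofibres of living mice. Acta1-Cre+/4Fhet mice (Cre+) carry a Cre recombinase under the skeletal actin promoter. Once Cre has cut out the block in front of them, rtTA and GFP are transcribed in the fibre, and rtTA, an activator that works only with doxycycline (Dox) bound, turns on 1 cassette that holds all 4 factors. Acta1-Cre-/4Fhet controls (Cre-) carry the same cassettes without Cre, and both genotypes were 2 months old and drank water with 1 mg/ml Dox over 2.5 days, 5.5 days or 8.5 days. The extensor digitorum longus (EDL), a mostly fast muscle, and the soleus (SOL), a mostly slow muscle, were sequenced whole, with 2 libraries in each of the 12 groups and 24 in all. The muscles hold nerve, vessel and connective tissue cells beside the fibres that express Cre, and in such bulk RNA fewer cells of a type and less RNA per cell cannot be told apart.

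Potassium channels let potassium leave the fibre and so end action potentials and hold the resting potential. In skeletal muscle, Kv channels repolarise the membrane, inward rectifiers of the Kir2 type hold the resting potential in the surface and tubular membranes, and ATP-sensitive channels built on Kir6.2 couple excitability to the energy state. Silent Kv subunits form no channel alone but join Kv2 subunits and change their gating, and two-pore-domain channels carry background leak currents.

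Sequencing depth was similar across libraries, from 36088781 to 54679082 counts in total, and a gene read 0 times could still have had up to 3 counts. Oct4, Sox2 and c-Myc were higher in Cre+ than in Cre- libraries of both muscles at 2.5 and 8.5 days. The counts do not separate cassette from endogenous transcripts. Pou5f1 (Oct4) stood at 17.5 and 70.5 FPKM (counts scaled to exon length and library total) in Cre+ EDL at 2.5 days and at 76.2 and 57.7 at 8.5 days. In Cre+ SOL it stood at 5.02 and 9.62 at 2.5 days and at 12.2 and 6.19 at 8.5 days, and no Cre- library went above 0.0896. At 5.5 days the 2 Cre+ EDL libraries stood far apart, at 1.02 and 27.7 FPKM, and Cre+ SOL reached 0.0785 and 0.387. The study left 5.5 days out of its analysis. Klf4 was higher in Cre+ than in Cre- EDL at 2.5 and 8.5 days, but its Cre+ and Cre- SOL libraries overlapped. In SOL it stood at 17.2 and 15.9 FPKM in Cre+ and 11.1 and 17.1 in Cre- at 2.5 days. At 8.5 days it stood at 22.7 and 12.6 in Cre+ and 12.8 and 22.6 in Cre- SOL. The summed level of 10 fast fibre markers lay between 102081 and 112096 FPKM in Cre- EDL at 2.5 days, with 67484 and 84276 in Cre+. At 8.5 days it was 96316 and 104594 in Cre- and 78032 and 91063 in Cre+. The 9 slow fibre markers summed to at most 1585 FPKM in Cre- EDL and at least 30853 in Cre- SOL. The 6 neuron markers summed to at most 0.577 FPKM in any library, and Snap25, Syt1 and Nefl had 10 counts or fewer in all of them. A list of 5 liver transcripts summed to between 15 and 80.2 FPKM in Cre- SOL and between 4.36 and 6.05 in Cre- EDL at 8.5 days, against at most 2.18 in the other groups; its part in the results of 8.5 days was not tested.

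In the mm10 genome of the files, Kcng4 lies at chr8:119623854-119635680, Kcnk5 at chr14:20140058-20181782, Kcna7 at chr7:45405960-45411382 and Kcnc4 at chr3:107438303-107458898. To show where transcription of the members that moved most begins, RefSeq promoter sequence (GRCm38.p6) was read for them. It was matched for 69 members with 94 promoters, each covering 250 bases before the start of the transcript and 50 from the start on. The 250 bases before the start are given for Kcng4 (chr8:119635681-119635930, minus strand), which had the largest fall, for Kcnk5 (chr14:20181783-20182032, minus strand) and Kcnh4 (chr11:100759779-100760028, minus strand), which had the largest rises, and for Kcnj2 (chr11:111065914-111066163, plus strand) and Kcnn4 (chr7:24370013-24370262, plus strand), which hold 2 of the motifs searched. Capitals mark exact matches to the motifs searched; that of Kcnk5 lies past the start.
Kcng4: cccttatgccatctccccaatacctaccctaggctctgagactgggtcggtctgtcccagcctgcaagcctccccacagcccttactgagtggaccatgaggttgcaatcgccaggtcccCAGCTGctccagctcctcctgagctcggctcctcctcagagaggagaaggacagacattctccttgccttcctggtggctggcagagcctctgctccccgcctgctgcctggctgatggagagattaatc
Kcnk5: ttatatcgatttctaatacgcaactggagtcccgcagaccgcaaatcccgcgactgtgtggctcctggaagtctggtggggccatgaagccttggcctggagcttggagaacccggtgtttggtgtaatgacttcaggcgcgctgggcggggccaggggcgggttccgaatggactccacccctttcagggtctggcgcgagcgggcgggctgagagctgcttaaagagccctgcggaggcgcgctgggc
Kcnh4: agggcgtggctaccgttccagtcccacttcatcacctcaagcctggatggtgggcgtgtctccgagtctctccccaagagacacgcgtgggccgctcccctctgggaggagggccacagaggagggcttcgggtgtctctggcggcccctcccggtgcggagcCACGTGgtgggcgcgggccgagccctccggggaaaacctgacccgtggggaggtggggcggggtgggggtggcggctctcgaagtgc
Kcnj2: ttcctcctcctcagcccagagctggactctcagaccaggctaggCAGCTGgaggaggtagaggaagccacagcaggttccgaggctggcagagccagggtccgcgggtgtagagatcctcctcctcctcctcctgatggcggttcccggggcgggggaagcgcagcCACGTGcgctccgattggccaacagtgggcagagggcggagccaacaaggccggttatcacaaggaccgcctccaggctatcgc
Kcnn4: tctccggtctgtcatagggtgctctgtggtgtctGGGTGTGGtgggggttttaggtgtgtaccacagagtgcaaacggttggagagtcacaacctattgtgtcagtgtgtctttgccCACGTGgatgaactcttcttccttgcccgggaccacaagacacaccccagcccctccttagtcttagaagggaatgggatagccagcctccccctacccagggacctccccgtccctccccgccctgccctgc

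The motifs were searched on both strands of all 32851 promoters of the table: CACGTG, the E-box that Myc and Max bind, CAGCTG, an E-box of myogenic factors that shares its outer letters with the first, ATGCAAAT, the octamer of Oct4, the core of the MEF2 site, in which CTA and TAG enclose any 4 bases, and GGGTGTGG, a letter run of Klf sites. CACGTG stood in 7.15% of all promoters and in 7 of 94 member promoters (7.45%). These 7 promoters belonged to 6 genes, counted from +1 at the start: Kcnh4 at -87, Kcnk5 at +27, Kcnn4 at -133, Kcnab1 at -162 and -45 in 2 promoters, Kcne4 at -54 and Kcnj2 at -84. All 6 were among the members that changed in Cre+ EDL, where 7 of 18 promoters held it (38.9%) against 0 of 76 promoters of the other members, 3 of the genes being higher and 3 lower. No test was made of this count, which was noticed after the calls were known. CAGCTG stood in 16.3% of all promoters, in 4 of the 18 promoters of changed members (22.2%), that of Kcng4 at -130 included, and in 20 of the 76 others (26.3%). ATGCAAAT (1.74% of all promoters) and the MEF2 core (3.69%) were in none of the 18, and GGGTGTGG (3.56%) was in those of Kcnn4 and Kcnq5. A match is a run of letters, not a bound site.

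The first question was which potassium channels these muscles express. Over all 24 libraries 22 members had a mean of at least 1 FPKM, 17 had 3 counts or fewer everywhere, and 6 (Kcnj1, Kcnk15, Kcnk16, Kcnk18, Kcnk9 and Kcnmb3) had no count. The highest mean was that of Kcna7, the Kv1.7 alpha subunit, at 77.0 FPKM. It was followed by Kcnj11, the Kir6.2 pore of the ATP-sensitive channel, at 64.4, and by Kcnc4 (Kv3.4) at 29.6 and Kcnc1 (Kv3.1) at 19.7. This order differed between the muscles: in Cre- EDL Kcnc4 and Kcnj11 had the same mean of 65.8 FPKM, while in Cre- SOL Kcnc4, at 4.61, lay below Kcnj2 (21.2), Kcnj8 (15.2) and Kcnma1 (12.2). Kcnj2 (Kir2.1) and Kcnj12 (Kir2.2), which carry the resting inward rectifier current, had means of 17.7 and 17.5 FPKM. Kcnj8 (Kir6.1), best known from vascular smooth muscle, had 13. The 10 most abundant members ended with Kcnma1, the BK channel that calcium and voltage open together, at 8.93, and Kcnn1 (SK1), a calcium-activated channel of small conductance, at 7.57. Kcng4, the silent subunit Kv6.4, lay at 9.70 ± 4.94 FPKM (SD, n = 6) in Cre- EDL and at 3.71 ± 4.32 in Cre- SOL, and Kcnk5, the two-pore channel TASK-2, lay at or under 0.951 in every Cre- library.

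**Figure D1:**
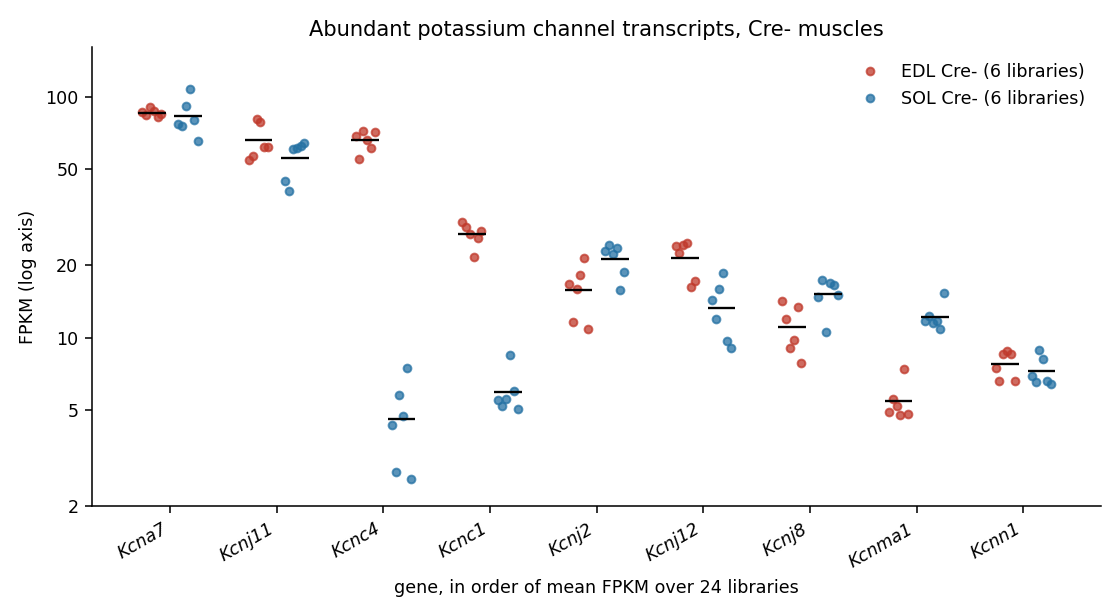
FPKM (log axis) of 9 of the 10 most abundant potassium channel genes in the 6 Cre- EDL and 6 Cre- SOL libraries, with a point for each library and a line at the mean. Kcnc4 and Kcnc1 stood higher in every EDL library than in any SOL library and Kcnma1 lower, while Kcna7 had means of 85.8 and 82.9 FPKM in the 2 muscles.

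The main comparison set Cre+ against Cre- EDL. A gene was called higher or lower when its edgeR adjusted p was under 0.05 and its log2 fold change was over 0.5 in size. At 2.5 days 15 of 62 tested members (24.2%) were called, 7 higher and 8 lower, beside 24% of all 15372 tested genes. At 8.5 days 12 members (19.4%) were called, 6 higher and 6 lower, beside 14.1% of all genes. Across both days 18 members were called, of which 9 passed on both days. Among these Kcnh4, Kcnk5 and Kcnn3 were higher, and Kcng4, Kcnab1, Kcnj2, Kcnn2 and Kcna7 lower. No share of all genes called on either day or on both is given, so the counts 18 and 9 are descriptions. The counts of both days include Kcng4 and Kcnh4, whose changes are descriptions. Kcng4 was singled out for its fall, and Kcnh4 passed the filter on low counts only through Cre+ EDL. The share of members called was close to that of all genes at 2.5 days. The median of the absolute log2 fold change was 0.601 over members and 0.388 over all genes at 2.5 days. The 8.5 day values were 0.526 and 0.305. Members also had the larger median in SOL at 5.5 days (0.258 against 0.14), where 0 genes were called. The median signed change in EDL was -0.36 over members and -0.05 over all genes at 2.5 days. With library size alone as the scaling, which put the median of all genes at 0.282 (log2), 8 members were higher and 4 lower at 2.5 days. No share of all genes is given for that fit, so the count shows only that the calls depend on the scaling. With 2 libraries a group single libraries weigh: leaving out Cre+ replicate 2 left 7 calls at 2.5 days and Cre- replicate 2 left 9, and at 8.5 days leaving out Cre+ replicate 1 left 5.

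**Figure D2:**
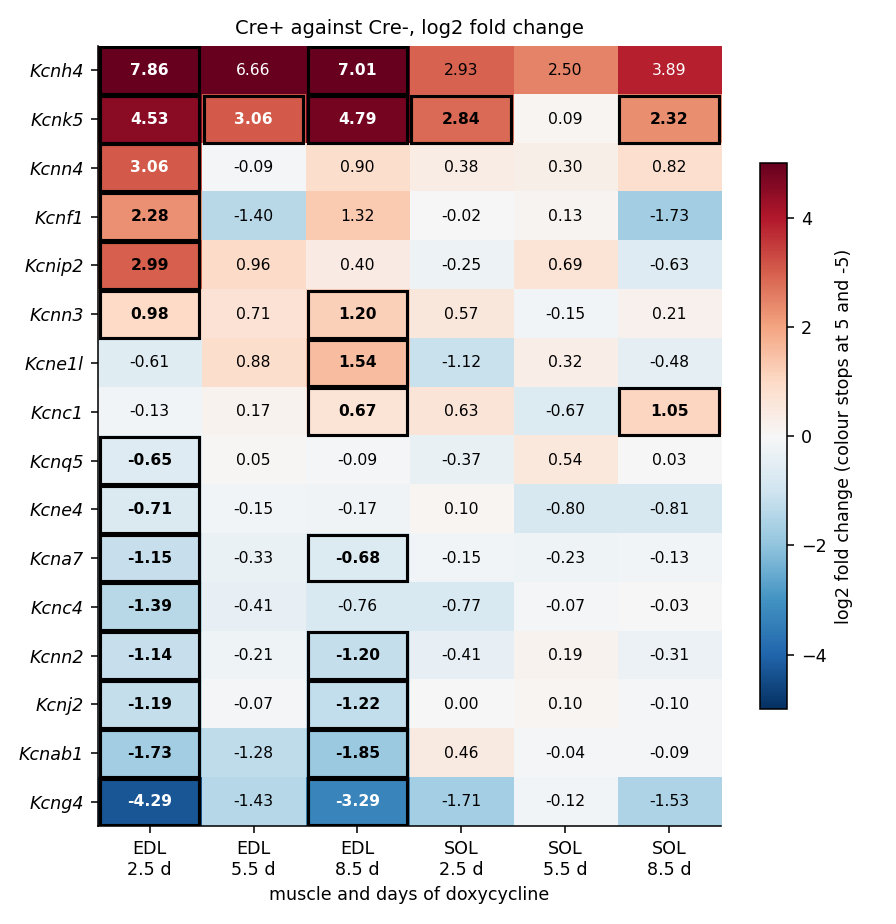
Log2 fold change of Cre+ against Cre- for 16 of the 18 members called in EDL at 2.5 or 8.5 days (rows), in each muscle after each number of days of Dox (columns). Colour and number give the fold change, and framed bold cells passed the thresholds. Kcnk5 was the member framed in most columns, from 4.79 in EDL to 2.32 in SOL at 8.5 days, and Kcng4 had the lowest values, -4.29 and -3.29 in EDL.

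Among the silent Kv subunits, Kcng4 was many times lower in Cre+ EDL. At 2.5 days its level was 11.8 and 18.8 FPKM in Cre- EDL and 1.07 and 0.902 in Cre+ EDL. At 8.5 days it was 7.98 and 6.07 in Cre- and 0.749 and 0.876 in Cre+. The groups did not overlap on either day. The fitted log2 fold changes were -4.29 (SE 0.54; 19.5-fold lower) and -3.29 (SE 0.52; 9.75-fold lower), and with any 1 library left out they ranged from -4.60 to -3.88 and from -3.46 to -3.09. Kcnf1 (Kv5.1), which also joins Kv2 channels, went the other way at 2.5 days, from 0.809 and 0.476 to 3.98 and 3.85 FPKM (log2 fold change 2.28, SE 0.74, adjusted p = 0.0367). That call was lost when any 1 of the 4 libraries was left out. The summed FPKM of all 10 silent subunits, most of it Kcng4 in Cre- EDL, was 13 and 20.1 in Cre- and 5.66 and 6.29 in Cre+ at 2.5 days.

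**Figure D3:**
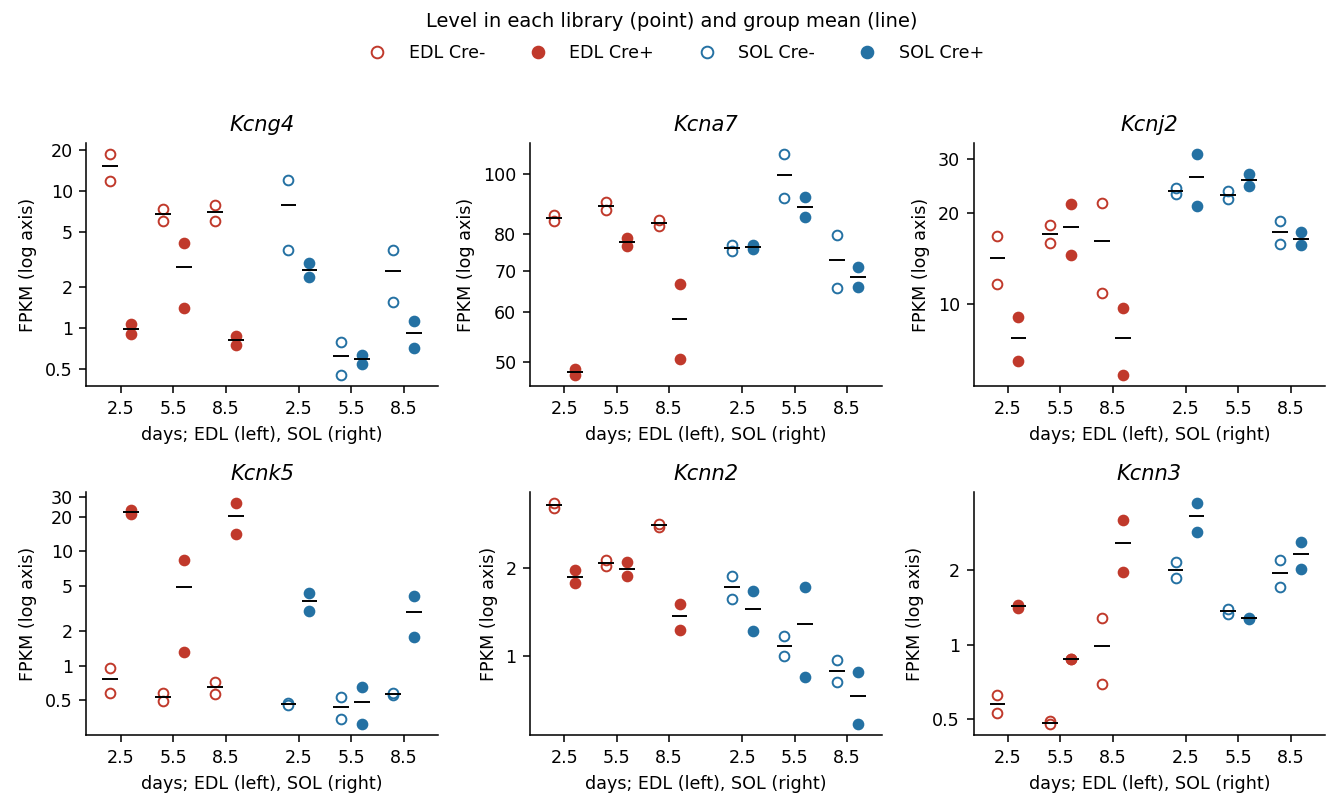
FPKM (log axis) of Kcng4, Kcna7, Kcnj2, Kcnk5, Kcnn2 and Kcnn3 in all 24 libraries, by days of Dox, with EDL in red at the left of each panel, SOL in blue at the right, Cre- as open and Cre+ as filled points and the group mean as a line. Kcng4 in Cre+ EDL at 2.5 and 8.5 days lay between 0.749 and 1.07, within the range of SOL libraries, and Kcnk5 in the same groups lay between 14.4 and 26.7, above every SOL library.

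Of the 14 tested Kv1 to Kv4 alpha subunits, 2 were lower at 2.5 days and 2 lower and 1 higher at 8.5 days. Kcna7 fell from 86.1 and 83.9 FPKM to 47.5 and 48.6 at 2.5 days (log2 fold change -1.15, SE 0.17, adjusted p = 0.00034). At 8.5 days it went from 82.7 and 84.3 to 50.5 and 66.5 (-0.68, SE 0.16, adjusted p = 0.0138), a call that was lost without Cre+ replicate 1 (adjusted p = 0.159). The groups did not overlap on either day, and the 6 Cre- EDL libraries kept within 82.7 and 90.3 FPKM. Kcnc4, the fast-inactivating Kv3.4, was at 68.9 and 55.3 FPKM in Cre- and at 36.7 and 22.4 in Cre+ at 2.5 days (log2 fold change -1.39, SE 0.48, adjusted p = 0.0467), and this call was lost in 3 of the 4 fits that left out a library and under DESeq2 (adjusted p = 0.0506). Kcnc1, the delayed rectifier Kv3.1, was alone in rising at 8.5 days, from 25.9 and 27.8 to 51.5 and 45.3 FPKM (0.67, SE 0.16, adjusted p = 0.012), a call lost without Cre- replicate 1 or Cre+ replicate 1 (adjusted p = 0.0847 and 0.0924). The summed FPKM of the 17 alpha subunits was 196 and 184 in Cre- against 133 and 114 in Cre+ EDL at 2.5 days, and 184 and 202 against 158 and 169 at 8.5 days. The fast fibre marker sums given above were lower in the same Cre+ libraries, and their part in these falls was not tested.

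Kcnk5 made the largest rise among well-expressed members. Of this alkali-activated leak channel Cre- EDL held 0.951 and 0.575 FPKM and Cre+ EDL 21.3 and 22.8 at 2.5 days (log2 fold change 4.53, SE 0.39, adjusted p = 1.32e-05; 23.1-fold). At 8.5 days the levels were 0.570 and 0.719 against 26.7 and 14.4 (4.79, SE 0.40, adjusted p = 1.5e-05; 27.7-fold). Every Cre+ library lay far above every Cre- library, and both calls held whichever library was left out. The 14 two-pore-domain genes together summed to 4.25 and 3.78 FPKM in Cre- and 24.6 and 25.7 in Cre+ EDL at 2.5 days, so that most of the family's transcript in Cre+ EDL was Kcnk5. The other 5 tested members of the family did not pass the test on either day.

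Kcnh4, a voltage-gated channel of the ELK type best known from brain, was nearly absent from Cre- muscle and was read in Cre+ EDL. It passed the filter on low counts only through the Cre+ EDL libraries, so its rise is given as a description, without a p. Its counts were 1 and 1 in Cre- and 128 and 538 in Cre+ at 2.5 days, and 1 and 0 against 157 and 76 at 8.5 days. Per read sequenced, the ratio of Cre+ to Cre- was 324 at 2.5 days (exact 95% interval 89.5 to 2685, counting error only) and 180 at 8.5 days (31.9 to 7131). The Cre+ libraries differed widely: the ratio was 120 with Cre+ replicate 1 alone and 545 with Cre+ replicate 2 alone at 2.5 days, and 229 and 124 at 8.5 days. In Cre+ SOL it had 4 and 7 counts at 2.5 days and 4 and 0 at 8.5 days, against at most 1 in Cre- SOL. Its level stayed low in absolute terms, at 0.71 and 3.22 FPKM in Cre+ EDL at 2.5 days. The second tested gene of the group, Kcnh2 (ERG1), was at 0.356 and 1.43 FPKM in Cre- and 1.25 and 3.46 in Cre+ at 2.5 days and was not called.

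The calcium-activated channels moved in different directions. Kcnn2 (SK2) fell at both days, from 3.21 and 3.34 FPKM to 1.77 and 1.96 (log2 fold change -1.14, SE 0.22, adjusted p = 0.00226) and from 2.76 and 2.81 to 1.23 and 1.51 (-1.2, SE 0.22, adjusted p = 0.00355). Kcnn3 (SK3), its close relative, rose from 0.625 and 0.530 to 1.41 and 1.45 (0.98, SE 0.27, adjusted p = 0.0178) and from 1.28 and 0.695 to 3.20 and 1.96 (1.2, SE 0.27, adjusted p = 0.00961). The Cre+ and Cre- libraries overlapped for neither gene on either day. For Kcnn2 the call at 8.5 days was lost without Cre+ replicate 1 (adjusted p = 0.0609). For Kcnn3 the call at 2.5 days was lost without either Cre- library or Cre+ replicate 2 (adjusted p from 0.0618 to 0.112), and that at 8.5 days without Cre- replicate 2 (log2 fold change 0.83, adjusted p = 0.0521) or Cre+ replicate 1 (0.87, adjusted p = 0.126). Kcnn4 (KCa3.1), the intermediate conductance channel of blood cells and other non-excitable cells, was at 0.268 and 0.281 FPKM in Cre- and 0.867 and 5.03 in Cre+ at 2.5 days (3.06, SE 0.63, adjusted p = 0.00325). Most of that came from Cre+ replicate 2, without which the log2 fold change was 1.37 (adjusted p = 0.0507). The macrophage marker sum was 54.5 and 77.2 FPKM in Cre- and 55.5 and 85.5 in Cre+ at 2.5 days, and its part was not tested. Kcnma1 (2.5 days: 4.91 and 5.59 against 6.15 and 5.18 FPKM) and Kcnn1 (7.46 and 6.61 against 9.14 and 8.34) were not called. A long non-coding gene, A330093E20Rik, overlaps Kcnn2 on the opposite strand and reached 80 counts in Cre+ EDL; whether the counting used strand is not stated.

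Kcnq5, a KCNQ channel of the kind that opens slowly below threshold and restrains firing, fell slightly at 2.5 days, from 4.32 and 4.29 to 3.15 and 3.78 FPKM (-0.65, SE 0.19, adjusted p = 0.0213), a call lost when any 1 library was left out.

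Among the 9 tested inward rectifiers only Kcnj2 was called. Kir2.1, its product, stabilises the resting potential of the fibre. It was at 16.7 and 11.6 FPKM in Cre- and 9.04 and 6.49 in Cre+ at 2.5 days (log2 fold change -1.19, SE 0.33, adjusted p = 0.0182), and at 21.5 and 10.9 against 5.83 and 9.68 at 8.5 days (-1.22, SE 0.33, adjusted p = 0.0252). The 8.5 day groups lay close, and without Cre- replicate 1 the log2 fold change was -0.67 (adjusted p = 0.267) and without Cre+ replicate 1 it was -0.86 (adjusted p = 0.237). The call at 2.5 days was lost without Cre- replicate 1 or Cre+ replicate 2 (-0.93 in both, adjusted p = 0.129 and 0.172). Kcnj12 (24.1 and 22.4 against 18.1 and 27.5 FPKM at 2.5 days) and Kcnj8 (14.2 and 12 against 10.6 and 11.5) did not pass. Kcnj11 was at 54.6 and 56.5 in Cre- against 64.1 and 54.1 in Cre+ at 2.5 days and at 61.8 and 62.0 against 89.8 and 95.3 at 8.5 days, where its log2 fold change of 0.40 (SE 0.14) had an adjusted p of 0.0683.

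Of the 12 tested accessory subunits, Kcnab1 fell on both days. This cytosolic beta subunit, which joins Kv1 channels and speeds their inactivation, was at 0.536 and 1.46 FPKM in Cre- and 0.366 and 0.396 in Cre+ at 2.5 days (log2 fold change -1.73, SE 0.41, adjusted p = 0.00802), and at 1.21 and 1.11 against 0.412 and 0.318 at 8.5 days (-1.85, SE 0.42, adjusted p = 0.00992). The first of these rests on Cre- replicate 2, without which it was -0.80 (adjusted p = 0.16), and was lost without Cre+ replicate 2 too, and the second was lost without either Cre+ library (adjusted p = 0.0706 and 0.069). The genes overlapping it on the opposite strand had at most 21 counts in any EDL library. Kcnip2, a calcium-binding partner of Kv4 channels, rose at 2.5 days from 0.133 and 0.156 to 0.596 and 2.37 FPKM (2.99, SE 0.58, adjusted p = 0.00229). Without Cre+ replicate 2 the log2 fold change was 1.75 (adjusted p = 0.0396), and without Cre+ replicate 1 it was 3.65. Kcnip2 was at 0.174 and 0.101 against 0.269 and 0.141 at 8.5 days. Kcne4, a small membrane subunit that damps Kv1 channels, was at 1.37 and 1.12 against 0.969 and 0.936 FPKM at 2.5 days (-0.71, SE 0.22, adjusted p = 0.0309), a call lost when any 1 library was left out. Kcne1l, another subunit of the KCNE type, was higher at 8.5 days, at 3.23 and 3.91 FPKM against 1.09 and 1.07 (1.54, SE 0.34, adjusted p = 0.00887), and was at 1.64 and 1.03 against 1.40 and 1.85 at 2.5 days. Its call was lost without Cre- replicate 1 or Cre+ replicate 2 (adjusted p = 0.061 and 0.0526).

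Whether the EDL response changed with time was tested as the difference between the changes at 8.5 and 2.5 days. By edgeR 0 of 62 members and 0% of all genes passed, with 8 members and 1469 genes at an unadjusted p under 0.05, and DESeq2 called 1 member. Kcnip2 had a difference of -2.59 (SE 0.85, adjusted p = 0.386), Kcne1l of 2.15 (SE 0.48, adjusted p = 0.212) and Kcng4, as a description, of 1.0 (SE 0.69).

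In SOL few members responded. At 2.5 days 1 member was called beside 0.384% of all genes, and at 8.5 days 2 were called beside 0.631%, all of them higher. Kcnk5 went from 0.470 and 0.450 FPKM in Cre- to 3.02 and 4.31 in Cre+ SOL at 2.5 days (log2 fold change 2.84, SE 0.39, adjusted p = 0.00741; 7.15-fold). At 8.5 days it was at 0.552 and 0.580 against 4.06 and 1.79 (2.32, SE 0.38, adjusted p = 0.0135; 5.0-fold). All Cre+ libraries lay above all Cre- libraries, although the second call was lost without Cre+ replicate 1 (1.66, adjusted p = 0.175). Kcnc1 rose at 8.5 days, from 6.0 and 5.05 to 12.3 and 11.3 FPKM (1.05, SE 0.16, adjusted p = 0.00922), and was at 5.50 and 5.20 against 10.3 and 8.15 at 2.5 days (0.63, SE 0.16, adjusted p = 0.121). Kcng4 was at 3.71 and 12.1 in Cre- and 2.34 and 2.98 in Cre+ SOL at 2.5 days (-1.71, SE 0.48, adjusted p = 0.156), and at 1.54 and 3.71 against 0.708 and 1.13 at 8.5 days (-1.53, SE 0.50, adjusted p = 0.407). The groups did not overlap, but the 2 Cre- libraries of a day differed between themselves widely.

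At 5.5 days 1 member was called in EDL, beside 0.304% of all genes. It was Kcnk5, at 0.572 and 0.490 FPKM in Cre- and 1.33 and 8.50 in Cre+ (log2 fold change 3.06, SE 0.62, adjusted p = 0.0481). The library with 8.50 FPKM was the one with 27.7 FPKM of Pou5f1, and without it the log2 fold change was 1.17 (adjusted p = 0.511). Kcng4 was at 6.07 and 7.47 in Cre- and 4.16 and 1.40 in Cre+ (as a description, -1.43, SE 0.51). Its lower value was in that same library, and Kcnh4 had 24 counts there and 0 in the other. In SOL edgeR called 0 members and 0% of genes at 5.5 days, with 4 members and 597 genes at an unadjusted p under 0.05, and DESeq2 called 0 members. Kcnk5 was at 0.340 and 0.534 against 0.307 and 0.648 FPKM there.

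The difference between the muscles' responses was tested directly. At 2.5 days 1 member, Kcna7, passed, beside 4.25% of all genes: the change in EDL minus that in SOL was -1.0 on the log2 scale (SE 0.23, adjusted p = 0.0325), Kcna7 having been at 76.9 and 75.4 FPKM in Cre- and 75.7 and 76.8 in Cre+ SOL. EDL and SOL libraries of one number varied together. The fit was therefore repeated with each such pair of one genotype, day and number as a block, the replicate block. It called 5 members at 2.5 days (6.63% of genes): Kcna7 (-1.0, adjusted p = 0.0205), Kcnab1 (-2.08, adjusted p = 0.028), Kcnc1 (-0.76, adjusted p = 0.0437), Kcnk5 (1.74, SE 0.28, adjusted p = 0.00942) and Kcng4. For Kcng4 the difference holds the same fall in EDL for which the gene was singled out and is a description only, -2.74 with the block (SE 0.49) and -2.58 without it (SE 0.68). Without the block the difference was 1.69 for Kcnk5 (SE 0.52, adjusted p = 0.0844). At 8.5 days edgeR called 0 members beside 0.592% of genes, with 10 members and 1729 genes at an unadjusted p under 0.05, and DESeq2 called 2. With the block 2 were called (1.14% of genes), Kcnk5 (2.52, SE 0.28, adjusted p = 0.00564) and Kcne1l (1.96, SE 0.33, adjusted p = 0.0277). Kcng4 had a difference of -1.76 at 8.5 days without the block (SE 0.70). The call of Kcna7 without the block was lost in 7 of 8 fits that left out 1 library.

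The comparison of fast and slow muscle used the 6 EDL and 6 SOL libraries of Cre- mice. Of 62 tested members 28 (45.2%) were called, 17 higher in EDL and 11 higher in SOL, beside 24.9% of 15478 genes. The 28 include Kcng4, whose difference is given as a description. They also include low members that passed the filter on low counts only through the muscle where they were higher. These were Kcns1 through EDL, and Kcnj14, Kcnv2 and the accessory subunits Kcnmb2 and Kcnrg through SOL. In size, the log2 fold change had a median of 0.769 over members and 0.291 over all genes. Members also had the larger median for Cre+ against Cre- SOL at 5.5 days (0.258 against 0.14), where 0 genes were called. All 6 called Kv1 to Kv4 alpha subunits were higher in EDL, while 4 of the 5 called accessory subunits were higher in SOL. By day, 19, 24 and 19 members were called at 2.5, 5.5 and 8.5 days, beside 16.9%, 19.8% and 19.5% of all genes. On all 3 days 14 members were called, a count given as a description without a share of all genes. With the replicate block 30 were called, the 28 and Kcna6 and Kcnmb1, beside 25.6% of genes.

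**Figure D4:**
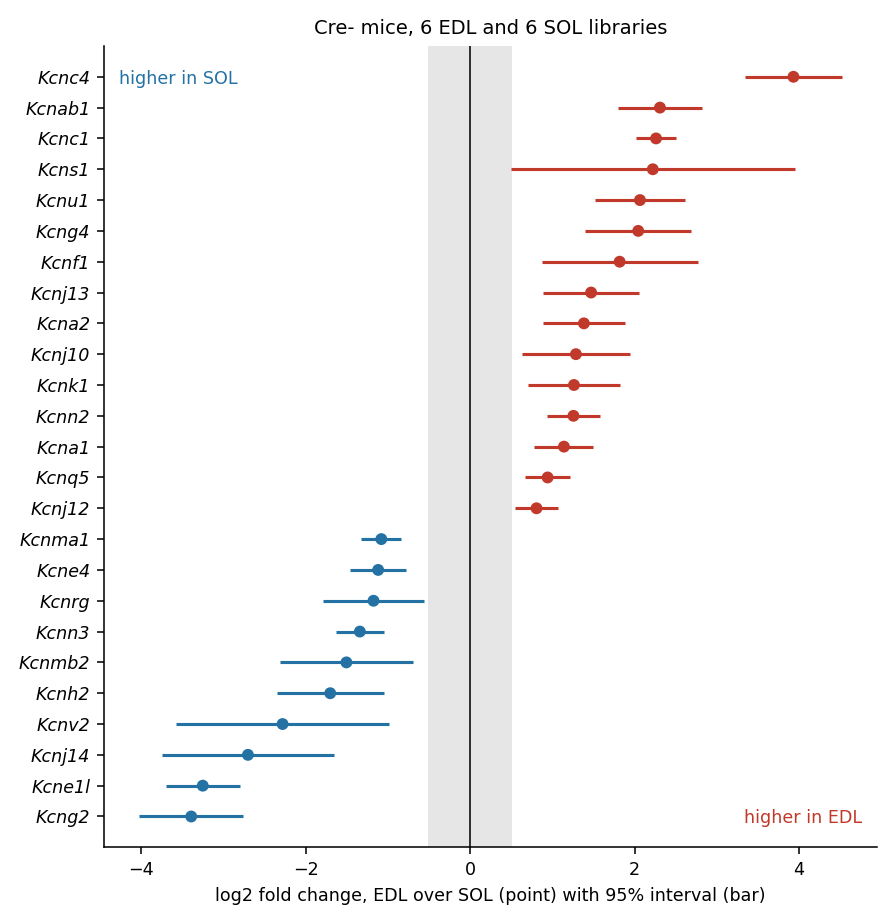
Log2 fold change of EDL over SOL in Cre- mice (point) with its 95% interval (bar) for 25 of the 28 members called, in order of size. The grey band marks changes under the threshold of 0.5. Kcnc4 at 3.93 leads the 15 genes shown as higher in EDL, and Kcng2 at -3.39 leads the 10 higher in SOL.

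Kcnc4 and Kcnc1, Kv3 channels that open at strong depolarisation and close fast, were both far higher in EDL. Kcnc4 had a lowest, median and highest level of 55.3, 67.5 and 72.3 FPKM in EDL and 2.59, 4.52 and 7.46 in SOL (log2 fold change 3.93, SE 0.28, adjusted p = 6.29e-09; 15.3-fold). Kcnc1 ran 21.7, 27.4 and 30.1 in EDL and 5.05, 5.52 and 8.49 in SOL (2.26, SE 0.11, adjusted p = 1.35e-10; 4.79-fold). The muscles overlapped for neither gene. Summed over all 17 genes, the alpha subunits came to between 184 and 202 FPKM in Cre- EDL and between 85.0 and 129 in Cre- SOL. Kcna7, the most abundant, was not called (0.15, SE 0.09, adjusted p = 0.178; 95% interval -0.03 to 0.33).

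Kcnab1 was at 0.536, 1.16 and 1.46 FPKM in EDL and 0.167, 0.249 and 0.377 in SOL (2.31, SE 0.24, adjusted p = 7.11e-07), without overlap. Kcnu1, known as the sperm channel Slo3, ran 0.575, 0.682 and 1.08 in EDL and 0.107, 0.170 and 0.323 in SOL (2.06, SE 0.26, adjusted p = 5.15e-06), also without overlap. Kcns1, a silent subunit, had a log2 fold change of 2.22 (SE 0.82) at levels of at most 0.324 FPKM. It passed the filter on low counts only through EDL libraries, so this value is a description, and its call was lost in 8 of 12 fits that left out a library. Kcng4 itself was higher in EDL by 2.04 (SE 0.30, 4.12-fold). This is a description, since the comparison shares the Cre- EDL libraries of the fall for which Kcng4 was singled out. Its levels, 6.07, 7.72 and 18.8 in EDL and 0.448, 2.62 and 12.1 in SOL, overlapped. By day its log2 difference was 1.05 at 2.5 days, which was not called, 3.57 at 5.5 days and 1.5 at 8.5 days. Kcnn2, at 2.71 ± 0.54 FPKM (SD, n = 6) in EDL and 1.23 ± 0.41 in SOL, was higher in EDL without overlap. Among inward rectifiers Kcnj12 was higher in EDL (0.81, SE 0.13, adjusted p = 5.15e-05), and Kcnj11 (0.33), Kcnj2 (-0.33) and Kcnj8 (-0.39) stayed under the fold threshold. Kcna1, Kcna2 and Kcnj10, known also from myelinated nerve, were higher in EDL by 1.14, 1.38 and 1.29. The 7 Schwann cell markers summed to between 66.6 and 195 FPKM in Cre- EDL and between 27.8 and 114 in Cre- SOL, and their part in these 3 was not tested.

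Higher in SOL was first Kcng2 (Kv6.2), a silent subunit like Kcng4, at 0.630, 0.929 and 1.89 FPKM against 0.0195, 0.0908 and 0.258 in EDL (-3.39, SE 0.30, adjusted p = 9.18e-08; 10.5-fold higher in SOL). The 2 Kv6 genes thus lay on opposite sides of the comparison, and for Kcng2 the muscles did not overlap. Kcne1l was at 1.48, 10.1 and 19.8 in SOL and 0.152, 1.08 and 1.85 in EDL (-3.25, SE 0.21, adjusted p = 2.44e-09); the ranges overlapped, and both muscles were lowest at 5.5 days, when SOL had 2.09 and 1.48 and EDL 0.152 and 0.193. Kcnma1 was higher in SOL without overlap, at 12.2 ± 1.57 FPKM against 5.46 ± 1.0 (SD, n = 6; -1.08, SE 0.12, adjusted p = 8.87e-07). Kcnn3 was at 1.78 ± 0.37 in SOL and 0.68 ± 0.30 in EDL (-1.34, SE 0.14, adjusted p = 5.33e-07), opposite to Kcnn2. Kcnh2 was at 2.04 ± 0.64 against 0.63 ± 0.45 (-1.70, SE 0.31, adjusted p = 0.000239). The smooth muscle and pericyte markers summed to between 129 and 190 FPKM in Cre- EDL and between 132 and 245 in Cre- SOL; for Kcnma1, also a smooth muscle channel, their part was not tested. Kcnj14 (Kir2.4), Kcnv2 (Kv8.2) and Kcnmb2, a beta subunit of BK channels, had log2 fold changes of -2.70, -2.28 and -1.51. All lay at levels of at most 0.246 FPKM and passed the filter on low counts only through SOL libraries, so these values are descriptions.

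The comparison of Cre- muscles and that of Cre+ with Cre- EDL share the Cre- EDL libraries, so their values are only set side by side. Kcnab1 had a log2 fold change of 2.31 for EDL over SOL and of -1.73 and -1.85 for Cre+ against Cre- EDL at 2.5 and 8.5 days. Kcnn3 had -1.34 for EDL over SOL and 0.98 and 1.2 for Cre+. Of 12 members called in both comparisons, 6 were higher in EDL than SOL and lower in Cre+ EDL, Kcnab1 and Kcng4 included. Another 3 were lower in EDL than SOL and higher in Cre+ EDL, Kcnn3 included. The sign for Cre+ EDL is that of the mean over 2.5 and 8.5 days. Shared libraries by themselves favour opposite signs, and no matching share of all genes is given, so no conclusion is drawn from these counts. In the rest the sign was the same. Kcnc1 had 2.26 for EDL over SOL and 0.67 for Cre+ at 8.5 days, Kcnf1 had 1.82 and 2.28 for Cre+ at 2.5 days, and Kcne4 had -1.12 and -0.71 at 2.5 days.

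Within Cre+ mice, 25 members (40.3%) differed between EDL and SOL at 2.5 days, 12 higher and 13 lower in EDL, beside 28.4% of genes. At 8.5 days 18 (29%) did, 10 higher and 8 lower, beside 18.2% of genes. The largest differences at 2.5 days were in genes that rose in Cre+ EDL, Kcnh4 (log2 fold change 5.73, SE 0.83) and Kcnf1 (4.31, SE 0.84). That of Kcnh4 is a description, since this gene passed the filter on low counts only through Cre+ EDL. Kcnh4 is in the counts of both days, and Kcng4 in that of 2.5 days. The count of 8.5 days also holds Kcnb2, which likewise passed this filter only through Cre+ EDL. Members that passed it only through SOL are counted as well, Kcnrg on both days and Kcnj14 at 8.5 days. Kcnk5 was higher in EDL on both days (2.52, SE 0.35, and 2.75, SE 0.35) and Kcnc4 too (3.61 and 3.05). Kcng4 was at 1.07 and 0.902 FPKM in Cre+ EDL and 2.34 and 2.98 in Cre+ SOL at 2.5 days, a log2 difference of -1.5 (SE 0.50) that rests on the low EDL values for which the gene was singled out and is a description. Kcna7 was lower in Cre+ EDL at 2.5 days (-0.74, SE 0.16, adjusted p = 0.00429), and Kcnj2 on both days (-1.82 and -1.13). With the replicate block 28 and 20 members were called, beside 31.4% and 21.8% of genes. The block added Kcna5 (-0.53), Kcnab2 (0.73) and Kcnv2 (-2.50) at 2.5 days and Kcna2 (0.94) and Kcne4 (-0.61) at 8.5 days, and removed none. The value of Kcnv2 is a description, since this gene passed the filter on low counts only through SOL.

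Potassium channels work with other transport proteins of the fibre, and 39 such genes were looked at beside them, 37 of which were tested. In Cre+ EDL 4 were higher and 11 lower at 2.5 days, beside 24% of all genes called in either direction, and 4 were higher and 6 lower at 8.5 days, beside 14.1%. Dpp6, a partner of Kv4 channels, rose from 0.563 and 0.650 to 5.04 and 7.52 FPKM at 2.5 days (log2 fold change 3.03, SE 0.31, adjusted p = 3.93e-05) and was 2.56 higher at 8.5 days. Lrrc38, a gamma subunit of BK channels, fell from 25.6 and 33.1 to 11.6 and 5.94 FPKM (-2.06, SE 0.34, adjusted p = 0.000887) and by 1.18 on the log2 scale at 8.5 days, while Kcnma1 itself was not called. Scn4b, a beta subunit of sodium channels, fell from 200 and 198 to 89.6 and 58.7 FPKM (-1.74, SE 0.22, adjusted p = 0.000146). Atp1b1, the beta subunit of the sodium pump that returns potassium to the fibre, fell from 146 and 129 to 71.6 and 63.2 FPKM (-1.35, SE 0.20, adjusted p = 0.000425). The calcium channel subunits Cacng1 and Cacnb1 rose on both days, by 1.07 and 1.77 and by 1.08 and 1.31. In SOL, where 0.384% and 0.631% of all genes were called, edgeR called 0 of the 37 at 2.5 days (10 at an unadjusted p under 0.05) and 2 at 8.5 days, Cacng1 (1.18) and Cacnb1 (0.70). Between Cre- muscles 13 were higher in EDL and 8 in SOL, beside 24.9% of all genes.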

How the data were processed

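RNA of whole EDL and SOL muscles was sequenced, 2 libraries in each of 12 groups, and each library was taken as a sample of its own. The study reports 2 independent biological samples per group for 2.5 and 8.5 days, but the labels name no mouse. Where libraries of a group are not from separate mice, p values measure technical spread only. Where an EDL and a SOL library share a mouse, p values without the block ignore that pairing. The authors aligned reads to mm10 with STAR 2.5.3a after FastQC 0.11.2 and deposited raw counts, which are the reads uniquely aligned to RefSeq exons as HOMER counted them (use of strand not stated). Reads shared with near-identical copies are not in such counts.

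Counts were tested in R 4.3.3 with edgeR 4.0.16 (quasi-likelihood test, TMM normalization, filter at a minimum count of 10, one mean per group) and Benjamini-Hochberg adjustment over all genes tested. The 16 libraries of 2.5 and 8.5 days were fitted in 8 groups (15372 genes), and values of 5.5 days and of Cre- EDL against SOL came from all 24 libraries (15478 genes). SE is the log2 fold change divided by the root of F. FPKM was computed from count, exon length and total count, whose range was 36088781 to 54679082. The limit of 3 counts covers counting error only. The fits were tested on simulated data.

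Members, gene lists and motifs were chosen with earlier results of these data known. The genes named were Kcng4, every member called in a Cre+ against Cre- comparison or for a difference between muscles, the 10 most abundant members, the 6 with the largest difference between Cre- muscles in each direction, and up to 6 partner genes; others were named after their values were seen. Some members that meet this rule are counted but not reported by name here. EDL and SOL libraries of the same number deviated together in each genotype and day (r from 0.173 to 0.445). The number was therefore taken to pair them, and a fit with each pair of one genotype, day and number as a block was an alternative. Further alternatives were DESeq2 1.42.0, other scalings, filters, thresholds and sets of libraries, and leaving out each library. Promoters came from RefSeq (GRCm38.p6). Figures were drawn with matplotlib 3.10.9.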

Additional observations from a re-analysis of the deposited data

Results flagged for a closer look

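The response of Kcna7, the Kv1.7 alpha subunit, differed between the muscles at 2.5 days by a test of the difference itself. Its log2 fold change of Cre+ against Cre- was -1.15 in EDL and -0.15 in SOL, a difference of -1.002 (SE 0.23, edgeR adjusted p = 0.0325). The call was lost in 7 of 8 fits that left out 1 library. Both Cre+ EDL libraries lay below both Cre- EDL libraries, and the SOL libraries of that day lay between 75.4 and 76.9 FPKM in both genotypes. The summed fast fibre markers were lower in the same Cre+ EDL libraries (67484 and 84276 FPKM, against 102081 and 112096 in Cre- EDL), and their part was not tested.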

How the results depend on the processing

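With 2 libraries a group the calls of low or variable members were the ones that moved. No share of all genes stands beside the counts of this section. They show only how the calls of members moved with the processing. For single named members, 525 values from fits that left out a library kept their direction and side of the threshold, 132 lost the call and 3 changed sign, all of these in SOL at 5.5 days: Kcng4 ranged from -0.49 to 0.35, and Kcnk5 from -0.56 to 0.52 with -0.23 between. The counts of members called ranged as follows when each library was left out in turn. In Cre+ against Cre- EDL they were 7 to 13 at 2.5 days, 0 to 1 at 5.5 days and 5 to 10 at 8.5 days. In SOL they were 0 to 1 at 2.5 days and 0 to 2 at 8.5 days. For EDL against SOL they were 26 to 31 in Cre- mice, 14 to 20 in Cre+ mice at 2.5 days and 9 to 12 at 8.5 days. For the difference between muscles they were 0 to 4 at 2.5 days and 0 to 1 at 8.5 days, and for that between days 0 to 4.

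Under the other alternatives the EDL counts stayed at 12 to 16 at 2.5 days and 8 to 13 at 8.5 days. In SOL at 2.5 days library size alone gave 2 calls, DESeq2 3 on 16 and 3 on 4 libraries, and a fit of all 24 libraries 0. In SOL at 8.5 days the fit of 24 libraries gave 1 and that of 4 libraries by edgeR 0, which was also the count of the latter for EDL at 5.5 days. For the difference between muscles at 2.5 days there were 2 calls by library size alone, 5 without a filter, 2 with at least 10 counts in every library, 7 by DESeq2, 4 with all 24 libraries and 5 with the replicate block of EDL and SOL libraries. At 8.5 days there were 2 without a filter, 2 by DESeq2 and 2 with that block. DESeq2 called 1 member for the difference between days. The cause was not tested. Cre+ and Cre- libraries of one number did not vary together (r from -0.169 to 0.0578); a replicate block across them gave 14 and 11 calls in EDL at 2.5 and 8.5 days, 1 and 2 in SOL, and 0 in either muscle at 5.5 days. The EDL and SOL block changed no call other than those given beside the results. Library size alone put the median change over all genes (log2) between -0.154 and 0.282. FPKM by TMM-scaled totals moved group levels by -16.8 to 17 percent. Depth limits the 32 members that were not tested, which had at most 10 counts in any library.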
